A study of Mus musculus with 2 samples.

Results

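The connective tissue of the mouse adrenal gland was followed through 10 genes of its extracellular matrix: the proteoglycans Dcn and Lum, the fibrillar collagen chains Col1a1, Col1a2 and Col3a1, the basement membrane collagen chains Col4a1 and Col4a2, and the matrix proteins Fn1, Sparc and Mgp. They were taken by symbol among the 55536 annotated genes, of which 16745 had at least 1 read, and all 10 were among these. Long-read RNA sequencing, in which 1 read follows 1 RNA molecule, was done in 2 libraries of adrenal gland tissue from wild-type C57BL/6J mice of The Jackson Laboratory, without treatment, which the labels number as biological replicates 1 and 2 of 1 group. The libraries come from separate biosamples that share 1 donor entry, so their spread may in part be technical. A label field calls the tissue male, the field for sex was not collected and the age is unknown. No conditions could be compared, and every test below sets replicate 1 against replicate 2.

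The adrenal gland is wrapped in a capsule of fibroblast-like cells that lay down collagen fibres, and thin strands of stroma carry its sinusoids between the cords of cortical and medullary cells. Fibrillar collagens give the capsule its strength, small proteoglycans such as decorin sit on the fibrils and set their spacing, and type IV collagen forms the network of the basement membranes around vessels and cell cords. A collagen chain is built almost wholly of repeats in which glycine recurs at a fixed step, which lets the chains wind around each other. Its coding sequence is long and cut into very many short exons.

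That design can be read in the exons themselves, shown here because the results turn on how many of these small exons a read keeps. In the next 3 sequences each codon beginning with GG, the glycine codons, is in capitals, and each is a whole coding exon of 54 bases on mm10, taken from the GENCODE M21 transcripts and written 5′ to 3′ on the coding strand.
Col1a1 exon 8, chr11:94939904-94939957, plus strand: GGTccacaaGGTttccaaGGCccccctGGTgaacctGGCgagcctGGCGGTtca
Col1a2 exon 8, chr6:4515481-4515534, plus strand: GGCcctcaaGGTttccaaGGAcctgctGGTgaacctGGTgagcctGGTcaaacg
Col3a1 exon 6, chr1:45325360-45325413, plus strand: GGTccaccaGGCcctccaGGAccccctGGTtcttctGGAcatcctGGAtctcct
All 3 exons start with a glycine codon and repeat it every 9 bases. Exons of exactly 54 bases made up 21 of 49 whole coding exons of Col1a1, 24 of 50 of Col1a2 and 24 of 49 of Col3a1, but 2 of 50 of Col4a1 and 1 of 45 of Col4a2. The coding exons that were a multiple of 9 bases long were 87.8% in Col1a1, 90% in Col1a2, 87.8% in Col3a1, 40% in Col4a1 and 51.1% in Col4a2, and 14.2% over all coding genes. The longest unbroken run of glycine-led triplets was 338 in Col1a1, 339 in Col1a2 and 344 in Col3a1, against 40 in Col4a1 and 66 in Col4a2. Type IV chains are known for interruptions in their repeats, and the fibrillar chains for a long uninterrupted one.

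Replicate 1 held 848782 reads and replicate 2 held 545229, so that 1 read was worth 1.18 and 1.83 CPM (counts scaled to 1000000 reads per library) and a count of 0 allowed up to 3.53 and 5.50 CPM, a limit of 3 reads that covers counting error only. The reads of annotated transcripts came from shorter RNAs in replicate 1, with a median annotated length of 1648 bases against 2740. The gland was recognised by its own markers: Star, which moves cholesterol into mitochondria, had 11962 and 15435 reads, and Th, the first enzyme of catecholamine synthesis, had 2403 and 812. Of 10 further markers of capsule and stroma cells 8 had a read, with Pdgfra, the receptor that marks many fibroblasts, at 12 and 5 reads and the hedgehog effector Gli1 and Wt1 at 0 in both libraries. The 7 kidney markers summed to 1 read in replicate 1 and 0 in replicate 2, and Umod was at 0 in both.

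Together the 10 matrix genes took 1421 reads of replicate 1, or 0.167% (95% exact binomial interval 0.159 to 0.176), and 538 reads of replicate 2, or 0.0987% (0.0905 to 0.107), a mean of 0.133% ± 0.0486 (SD, n = 2). Sparc led in both libraries and Fn1 was last in both. Between them the order differed: after Sparc came Dcn, Mgp, Col4a1, Col4a2, Col1a2, Lum, Col1a1 and Col3a1 in replicate 1, and Col4a1, Col4a2, Dcn, Col1a2, Col1a1, Lum with Col3a1, and Mgp in replicate 2. By the mean of both libraries the order was Sparc, Dcn, Col4a1, Mgp, Col4a2, Col1a2, Col1a1, Lum, Col3a1 and Fn1, but the step in CPM between neighbours was smaller than the larger of their SDs for 7 of the 9 neighbouring pairs. The exceptions were Col4a2 and Col1a2, with a step of 41.9 CPM against SDs of 41.4 and 25.5 (n = 2), and Col3a1 and Fn1, with a step of 29.4 against 24.6 and 1.30 (n = 2). Each read was counted once whatever the length of its RNA, so CPM was not divided by length. The ratio between the libraries varied with length. The median log2 ratio of replicate 1 over replicate 2 was 3.87 over genes near the length of Mgp. It was −0.65 over genes near the length of Col4a1. These orders therefore rank reads, and whether they rank molecules was not tested.

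Of the 10 genes, 9 had the 10 reads needed for the test between the libraries, and all 9 passed: Dcn, Sparc and Mgp were higher in replicate 1 and the other 6 were lower. Over all 9879 genes tested, 27.9% were higher and 36.6% lower in replicate 1 (Fisher's exact test, Benjamini-Hochberg adjustment, threshold 0.05), so passing is common between these libraries. The median log2 ratio of replicate 1 over replicate 2 was −1.07 for the 9 genes and −0.38 for all genes. TMM scaling moved that median of all genes to 0.06, and under it 3 matrix genes were higher and 3 lower against 33.8% and 27.6% of all genes. Fewer cells of a type and less RNA per cell cannot be told apart in such bulk tissue.

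**Figure D1:**
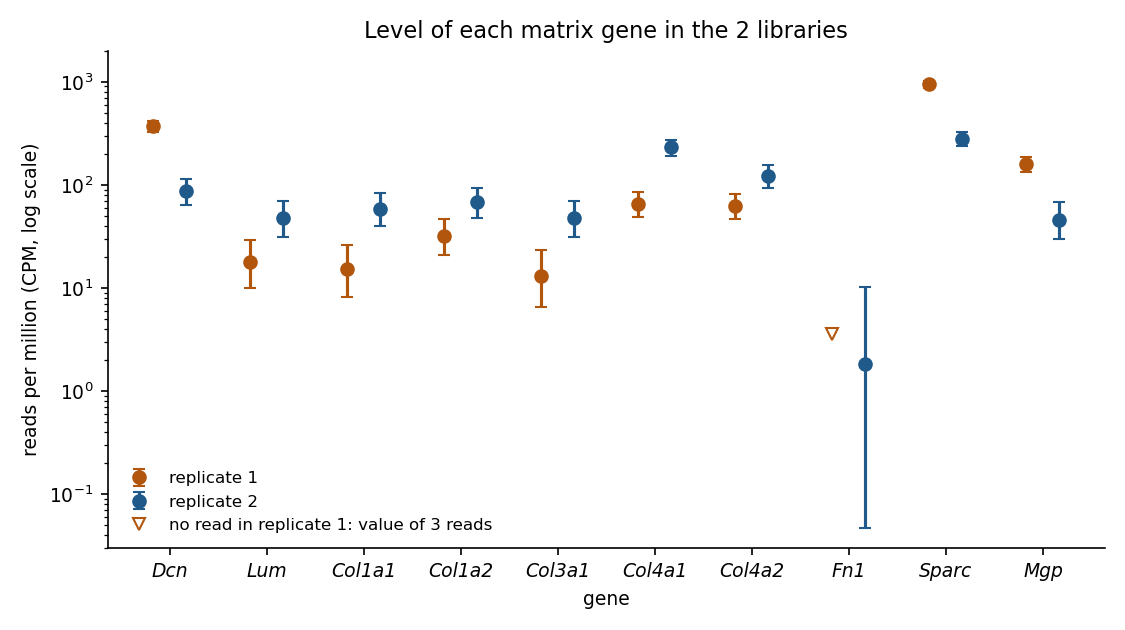
CPM of the 10 matrix genes on a log axis in replicate 1 (left point of each pair) and replicate 2 (right point), with exact Poisson 95% intervals; the open triangle marks Fn1 at 0 reads in replicate 1, drawn at the value of 3 reads. Dcn, Sparc and Mgp stand higher in replicate 1, and Lum and the 5 collagen chains stand lower there.

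Scaled to total reads, the small proteoglycans went in opposite directions. Dcn encodes decorin, which binds along collagen fibrils and also holds growth factors (chromosome 10, 97479609 to 97518143, plus strand), and it had 313 reads in replicate 1 and 47 in replicate 2, or 369 CPM (329 to 412) and 86.2 CPM (63.3 to 115). It was higher in replicate 1 by a log2 ratio of 2.08 (CPM + 1 scale, adjusted p = 1.36e-26, Fisher's exact test). Lum encodes lumican, a close relative that limits fibril thickness (chromosome 10, 97565128 to 97572703), and it lies on the same strand of the same chromosome. Lum had 15 and 26 reads, or 17.7 CPM (9.89 to 29.1) and 47.7 CPM (31.2 to 69.9), a log2 ratio of −1.38 (adjusted p = 0.0040). Dcn was above Lum in both libraries. The transcripts near each in length (within 20%) had a median log2 ratio of 0.70 around Dcn, over 1662 genes, and of −0.90 around Lum, over 2279 genes. Dcn stood above 78.0% of its neighbours in length and Lum above 36.5% of its own. With that running trend of ratio on length removed, Dcn stayed called and Lum did not. Under TMM scaling Lum did not pass either (log2 ratio −0.95, adjusted p = 0.065, exact binomial test).

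Nearly every read of the proteoglycans was complete, meaning that it held all splice junctions of an annotated transcript (class known); the counterpart is the incomplete splice match (ISM), a read with only a run of those junctions. Dcn had 290 known and 23 ISM reads in replicate 1 and 47 and 0 in replicate 2. Lum had 14 and 1 in replicate 1 and 26 and 0 in replicate 2. For both genes together the complete share was 92.7% (89.3 to 95.3) and 100% (95.1 to 100). Of the 23 ISM reads of Dcn, 22 kept the 3′ end and stepped down the gene from the second exon to the later ones.

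Dcn is annotated with a choice of first exon, and both forms were read in full. Dcn-201 begins at 97479609 and Dcn-202 at 97482367, 2758 bases further on; each first exon has 181 bases, the other 7 exons are shared, and both spliced forms measure 1758 bases. Dcn-201 had 240 of 290 known reads in replicate 1 and 39 of 47 in replicate 2, which is 82.8% (77.9 to 86.9) and 83.0% (69.2 to 92.4). Dcn-202 had the other 50 and 8. The 2 libraries thus gave nearly the same split of first exons although they differed by 4.28-fold in CPM, and the test of isoform use did not pass (adjusted p = 1.00, Fisher's exact test), against 9.84% of 2186 genes that did.

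Sparc and Mgp were the other genes higher in replicate 1. Sparc encodes osteonectin, a collagen-binding protein of remodelling matrix that is also made by endothelial cells and pericytes (chromosome 11, 55394500 to 55423183, minus strand), and it had 800 and 152 reads, or 942 CPM (878 to 1010.2) and 279 CPM (236 to 327). Its log2 ratio was 1.75 (adjusted p = 3.49e-53, Fisher's exact test). Mgp encodes matrix Gla protein, an inhibitor of calcification of vessel walls and cartilage (chromosome 6, 136872435 to 136875823, minus strand), and it had 134 and 25 reads, or 158 CPM (132 to 187) and 45.9 CPM (29.7 to 67.7). Its log2 ratio was nearly the same, 1.76 (adjusted p = 7.61e-10, Fisher's exact test). Set beside transcripts of like length the genes parted. The 2160 genes within 20% of the 2300 bases of Sparc had a median log2 ratio of −0.67, and Sparc stood above 88.3% of them; the 240 genes around the 617 bases of Mgp had a median of 3.87, and Mgp stood above 10% of them. With the length trend removed Sparc remained higher in replicate 1 and Mgp was lower there, with a log2 ratio of −2.13 (adjusted p = 1.03e-07, exact binomial test).

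Mgp was read in full by nearly all of its reads. All 127 known reads in replicate 1 and all 22 in replicate 2 were Mgp-201, with 0 and 1 ISM reads. The remaining 7 and 2 reads were of class NNC, which holds at least 1 unannotated splice site, and in 6 and 1 of them the new site was an acceptor 2 bases inside an annotated exon.

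Sparc had 609 known, 113 ISM and 56 genomic reads in replicate 1 and 112, 19 and 16 in replicate 2; genomic reads lie in the gene without a matching splice structure. Its complete share was 84.3% (81.5 to 86.9) and 85.5% (78.3 to 91.0). That was under the median of transcripts of like length, 92.3% and 96.3%, and 26.8% and 11.9% of those genes were lower still. The largest ISM model was the same in both libraries, the last 6 of 10 exons, with 57 and 8 reads. Of the genomic reads 51 and 16 lay in a model of 1 exon within the last exon. The missing part was mostly the 5′ side: 105 of 113 and 18 of 19 ISM reads kept the 3′ end.

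Sparc-201 and Sparc-202, the main coding forms, differ by 3 bases at the start of exon 3 and by the length of the first exon. The sequence across that junction is printed because reads of this kind resolve the choice; it holds the last 30 bases of exon 2 and the first 33 of exon 3, without the intron, and capitals mark the 3 bases of exon 3 that Sparc-202 leaves out.
Sparc exons 2 and 3, chr11:55407247-55409957, minus strand: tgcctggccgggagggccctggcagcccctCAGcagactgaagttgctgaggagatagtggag
The letters cag stand side by side, so that the exon can begin after the first or before it. Among reads with either junction, 512 of replicate 1 used the longer exon and 112 the shorter, and 100 and 15 did so in replicate 2. The shorter exon thus had 17.9% (15.02 to 21.2) and 13.04% (7.49 to 20.6), with intervals that overlap. Over whole models Sparc-201 had 477 of 609 and 91 of 112 known reads and Sparc-202 had 105 and 12, and the test of the most used model did not pass (adjusted p = 0.999, Fisher's exact test). Sparc-203 and Sparc-205, annotated with a retained intron, had 11 and 12 reads in replicate 1 and 2 and 3 in replicate 2. Sparc-204, of the same type, had 0 and 3 reads. These forms have 2 to 5 exons against 10 in Sparc-201, yet their reads count as known in the complete share above.

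Fn1, fibronectin, the adhesive glycoprotein that links cells to matrix, was nearly absent (chromosome 1, 71585520 to 71653200, minus strand). It had no read in replicate 1, which allows up to 3.53 CPM, and 1 read in replicate 2, at 1.83 CPM with an interval of 0.0464 to 10.2. Of 1207 coding genes within 20% of its length of 8315 bases, 25.1% had fewer reads in replicate 2. The read was an ISM of 16 exons and 3051 bases that kept the 3′ end, in a transcript of 46 exons, and no statement on the alternative exons of fibronectin could be drawn from it.

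The fibrillar chains were all lower in replicate 1. Col1a1 and Col1a2 are the chains of type I collagen, the main fibre of capsules, tendon and bone, and Col3a1 is the chain of type III collagen, found with it in pliable tissues. Col1a1 (chromosome 11, 94936224 to 94953042) had 13 and 32 reads, or 15.3 CPM (8.16 to 26.2) and 58.7 CPM (40.1 to 82.8), a log2 ratio of −1.87 (adjusted p = 5.29e-05, Fisher's exact test). Col1a2 (chromosome 6, 4504814 to 4541544) had 27 and 37 reads, or 31.8 CPM (20.96 to 46.3) and 67.9 CPM (47.8 to 93.5), a log2 ratio of −1.07 (adjusted p = 0.0056, Fisher's exact test). Col3a1 (chromosome 1, 45311538 to 45349706) had 11 and 26 reads, or 12.96 CPM (6.47 to 23.2) and 47.7 CPM (31.2 to 69.9), a log2 ratio of −1.80 (adjusted p = 3.52e-04, Fisher's exact test). Transcripts of like length had medians of −0.80, −0.96 and −0.90, so Col1a2 lay near its neighbours, above 46.7% of them, and Col1a1 and Col3a1 were above 17.1% and 20.2% of theirs. In both libraries Col1a2 had more reads than Col1a1, 67.5% of their sum (50.9 to 81.4) in replicate 1 and 53.6% (41.2 to 65.7) in replicate 2. Under TMM scaling Col1a2 did not pass, and with the length trend removed Col1a1 alone of the fibrillar chains did.

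Among the 5 collagen chains the type IV pair had the most reads, 108 and 192 together, and both were lower in replicate 1 as well. Col4a1 and Col4a2 wind into the common trimer of vascular basement membranes, and their genes lie head to head on chromosome 8: Col4a1 runs on the minus strand from 11312826 to 11198423 and Col4a2 on the plus strand from 11312805 to 11449287, with 22 bases shared. Col4a1 had 55 and 126 reads, or 64.8 CPM (48.8 to 84.3) and 231 CPM (192 to 275), a log2 ratio of −1.82 (adjusted p = 9.33e-16, Fisher's exact test). Col4a2 had 53 and 66 reads, or 62.4 CPM (46.8 to 81.7) and 121 CPM (93.6 to 154), a log2 ratio of −0.94 (adjusted p = 7.41e-04, Fisher's exact test). The pair was evenly split in replicate 1, with 50.9% of its reads from Col4a1 (41.1 to 60.7), and leaned to Col4a1 in replicate 2, with 65.6% (58.4 to 72.3). Among coding genes of like length, Col4a1 had more reads than 94.2% and 98.5%, and Col4a2 more than 93.9% and 95.2%. Col4a1 stayed lower in replicate 1 under TMM scaling and with the length trend removed, and Col4a2 passed under neither.

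**Figure D2:**
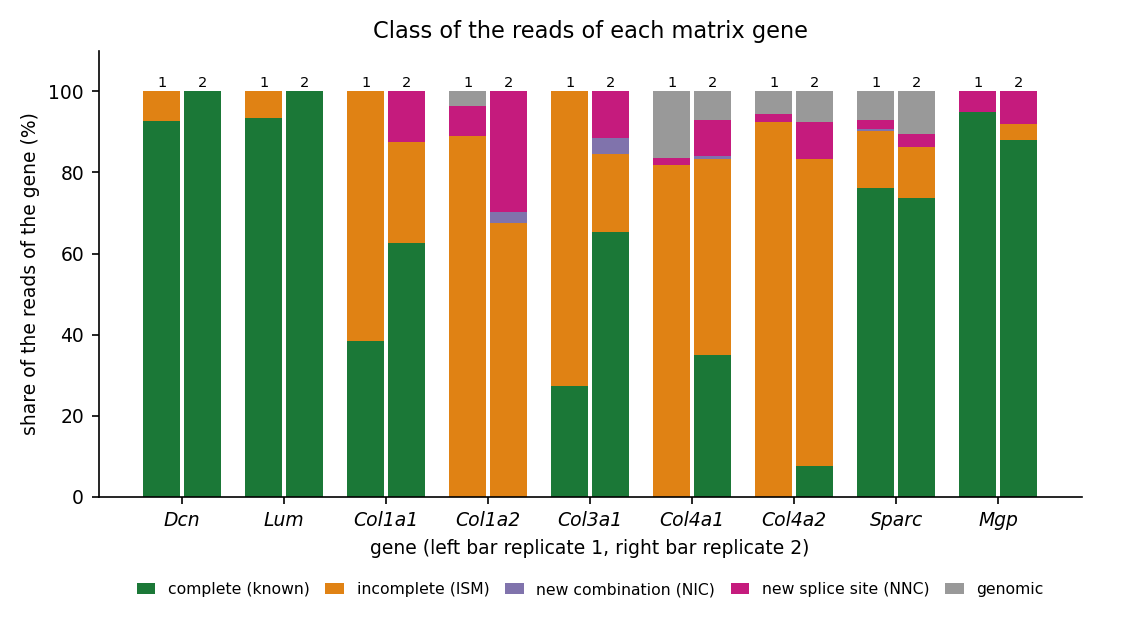
Share of the reads of each gene, in percent, that were complete (known), incomplete (ISM), a new combination of known splice sites (NIC), of a new splice site (NNC) or genomic; in each pair the left bar is replicate 1 and the right bar replicate 2, and Fn1 with 1 read is left out. Known reads fill most of the bars of Dcn, Lum, Sparc and Mgp, and none of those of Col1a2 in either library or of Col4a1 and Col4a2 in replicate 1.

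Few collagen reads were complete, and fewer in replicate 1. Over the 5 chains 8 of 142 known and ISM reads were known in replicate 1, or 5.63% (2.46 to 10.8), and 86 of 235 in replicate 2, or 36.6% (30.4 to 43.1). The 5 other genes had 88.4% (86.4 to 90.1) and 90.8% (86.3 to 94.2), and all annotated genes 85.9% and 88.1%. The collagens made up 159 of the 1421 reads of all 10 genes in replicate 1 and 287 of the 538 in replicate 2, and the complete share of all 10 genes was 79.5% and 63.3%. Col1a1 had 5 known and 8 ISM reads in replicate 1 and 20 and 8 in replicate 2. Col1a2 had 0 and 24 in replicate 1 and 0 and 25 in replicate 2, which lowers the share of the 5 chains. Col3a1 had 3 and 8 in replicate 1 and 17 and 5 in replicate 2. Col4a1 had 0 and 45 in replicate 1 and 44 and 61 in replicate 2, and Col4a2 had 0 and 49 in replicate 1 and 5 and 50 in replicate 2.

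The difference in complete share between the libraries was tested where each held 20 or more such reads, which 6 of the matrix genes did. Col4a1 passed, lower in replicate 1 by 41.9 percentage points (adjusted p = 1.01e-07, Fisher's exact test), as did 25.2% of the 2433 genes tested, while 3.66% were higher there. Dcn and Col4a2 did not pass, at −7.35 points (adjusted p = 0.150) and −9.09 points (adjusted p = 0.157, both Fisher's exact test). Neither did Sparc at −1.15 and Mgp at 4.35. For Col1a2, at a difference of 0, the test could not decide. No model held its very short exons 2 and 3, described below, so none could be classed as known in either library. Counted by junctions crossed, 3.70% and 27.03% of its reads ran end to end. Beside transcripts of like length, the complete share of Col4a1 stood at 0% against a median of 47.5% in replicate 1, and at 41.9% against 84.1% in replicate 2. Such neighbours also often had no known read at all, 45 of 240 in replicate 1 and 29 of 266 in replicate 2. For Col4a2 the share stood at 0% against 61.1% and at 9.09% against 85.2%.

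**Figure D3:**
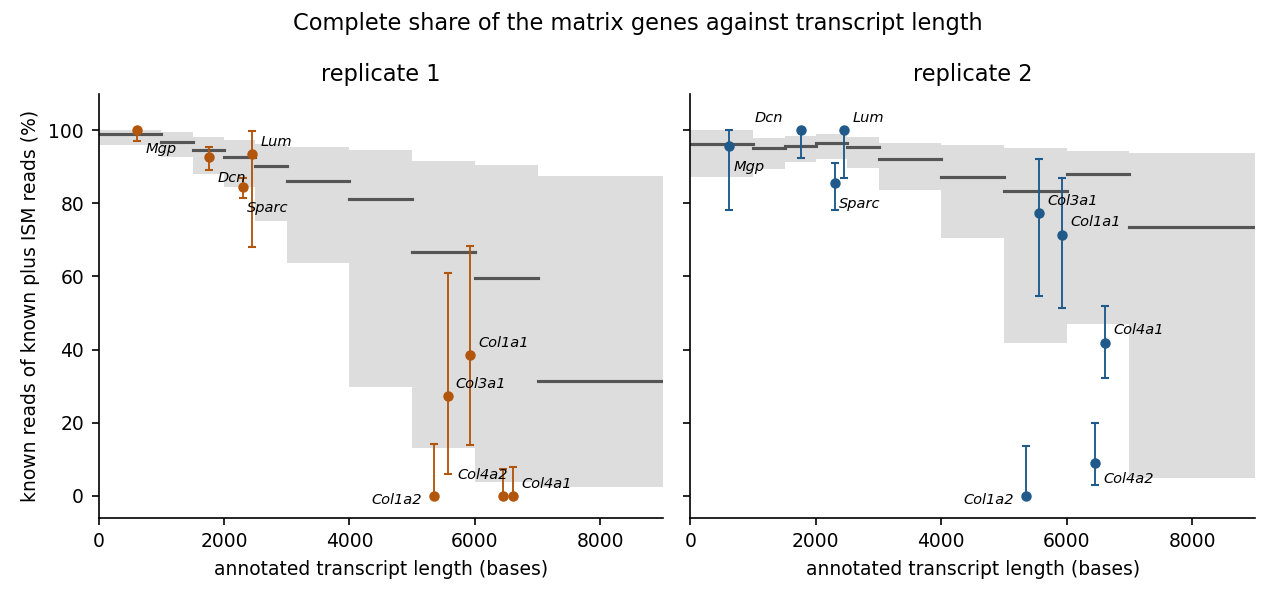
Known reads as a percentage of known plus ISM reads against annotated transcript length in bases, replicate 1 on the left and replicate 2 on the right; points are the matrix genes with exact binomial 95% intervals, and grey steps give the median and the middle quartiles over all coding genes with at least 20 such reads in that length class. The median from 6000 to 7000 bases was 59.5% in replicate 1 and 88.0% in replicate 2, and the type IV chains lay below it in both.

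The incomplete collagen reads lacked one end or the other in different proportions. Of the ISM reads of the 5 chains, 64.2% (55.4 to 72.3) in replicate 1 and 81.9% (74.7 to 87.7) in replicate 2 kept the 3′ end, and 29.9% (22.3 to 38.4) and 16.8% (11.2 to 23.8) kept the 5′ end. For all genes the shares with the 3′ end were 45.6% and 61.7%, and those with the 5′ end 43.3% and 27.5%. The end kept is the one named by the deposited ISM label, and some labelled models do not reach that end of the main transcript. In replicate 1, models of Col4a2 labelled with the 3′ end and holding 1 read each stopped at exon 13 or 16 of 48. In replicate 2, a model of Col4a1 with 1 read, labelled with the 5′ end, ran from exon 38 to exon 51. The median incomplete collagen read had 13 exons and a model length of 1716 bases in replicate 1, and 24 exons and 3305 bases in replicate 2. Col1a2 had no ISM read with the 5′ end in either library, and 24 of 24 and 24 of 25 kept the 3′ end. That was set by the classes: all its spliced models reaching exon 1 lacked the very short exons 2 and 3, described below. They were classed NNC or NIC and could not count as ISM. In the type IV chains both ends were represented. Col3a1 had 2 of 8 and 1 of 5 ISM reads with the 5′ end, and Col1a1 0 of 8 and 1 of 8.

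Counted junction by junction, the type IV chains of replicate 1 were read from both ends and hardly in the middle. Col4a1 had 19 reads across its first splice junction, 27 across its last and as few as 1 between them, and no read crossed all 51. Col4a2 had 20 across the first, 20 across the last, as few as 1 between and none across all 47. In replicate 2 the same counts were 60, 108 and 59 for Col4a1, with 53 reads across all junctions (42.1%, 33.3 to 51.2), and 25, 44 and 25 for Col4a2, with 8 across all (12.1%, 5.38 to 22.5). No such dip was seen in the fibrillar chains, but in replicate 1 too few of their reads crossed the first junction to show one. Col1a1 had 5 across the first and 13 across the last junction in replicate 1 and 25 and 31 in replicate 2, with 5 and 24 reads across all 50. Col1a2 had 1 across the first and 26 across the last in replicate 1 and 10 and 36 in replicate 2. Col3a1 was crossed from end to end by 3 reads in replicate 1 and 21 in replicate 2.

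The drop in type IV reads of replicate 1 came after exon 13 in both genes. In Col4a1, 19 reads crossed junction 12 and 5 crossed junction 13, and 14 reads formed 1 model that kept the 5′ end and held 13 exons, which is 73.7% of the 19 (48.8 to 90.9). In Col4a2, 23 reads crossed junction 12 and 4 crossed junction 13, and 17 reads formed 1 model with the 5′ end and 13 exons, 73.9% of the 23 (51.6 to 89.8). In replicate 2 the step was missing: 61 and 61 reads crossed these junctions in Col4a1 and 26 and 25 in Col4a2. Models of 13 exons with the 5′ end held 0 and 1 reads there (upper limits 5.87% and 19.6%). The 13-exon model of Col4a1 was listed as ending at 11240557, 565 bases past exon 13 (11241122 to 11241208) and 490 bases short of exon 14. That of Col4a2 ended at 11408144, with exon 13. Unspliced genomic reads of Col4a1 ended near the same place in both libraries, 2 in replicate 1 at 11240557 and 1 in replicate 2 at 11240561. The end listed for a model is shared by its reads and is not the end of each. Replicate 2 had a step of its own in Col4a2, where 37 reads crossed junction 32, 28 crossed junction 33 and 12 reads formed a model of the first 33 exons (32.4%, 18.0 to 49.8); replicate 1 had 1 read in that model. These places were picked after the counts were seen and are given without a test.

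**Figure D4:**
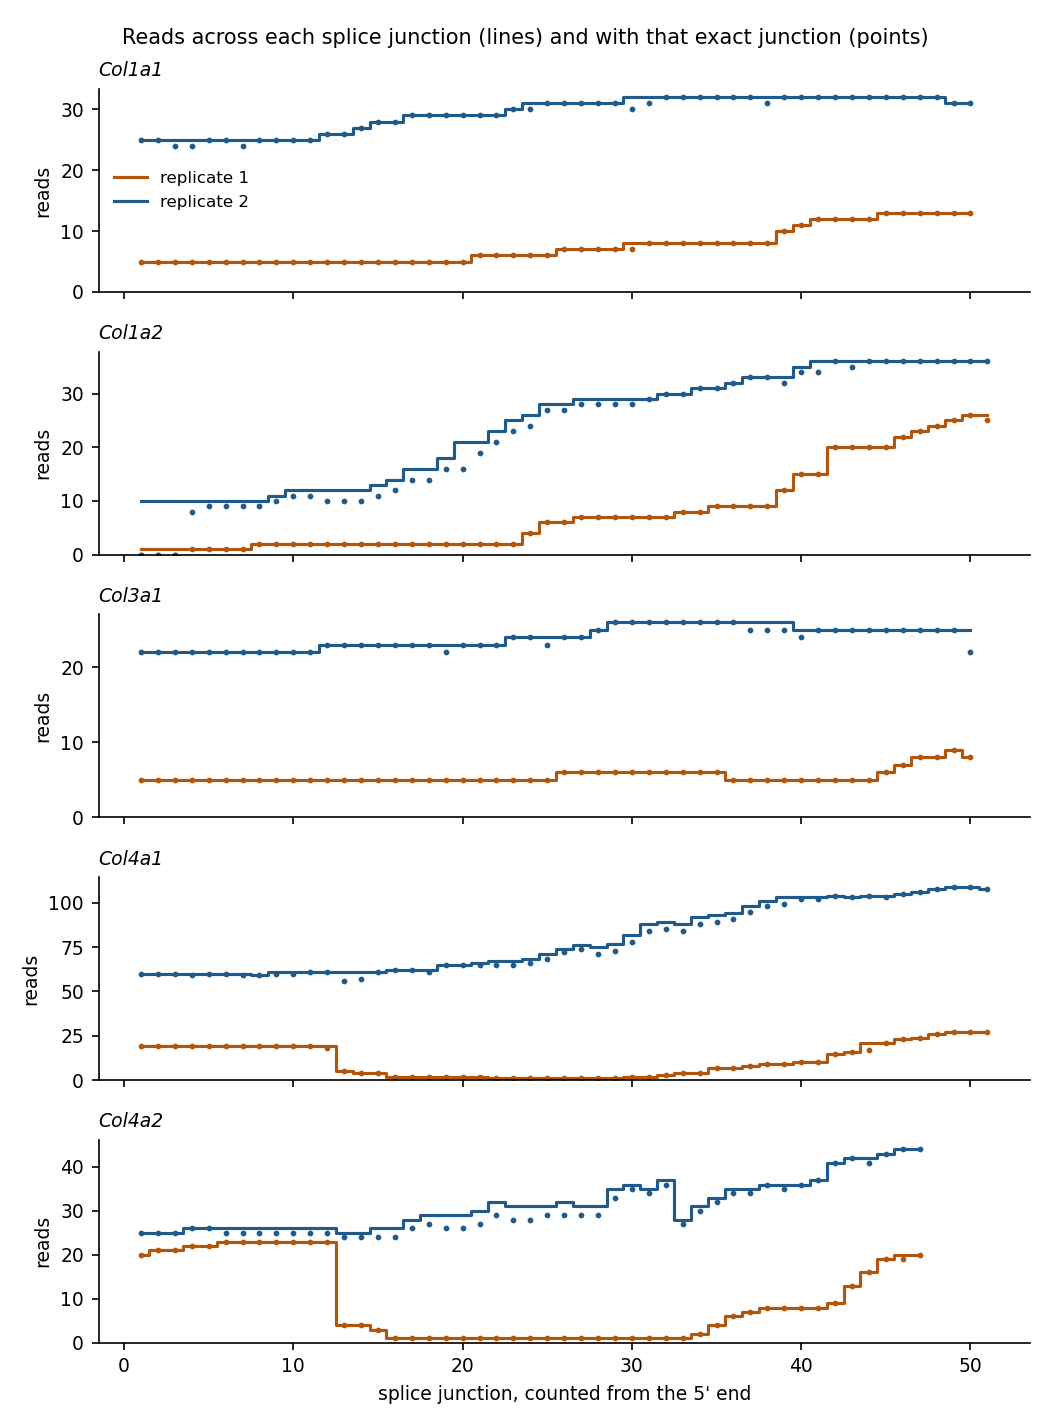
Number of reads across each splice junction of the 5 collagen chains (lines) and number that held that exact junction (points), with junctions counted from the 5′ end, for replicate 1 and replicate 2. In Col4a1 and Col4a2 the line of replicate 1 drops after junction 12, to 5 and 4 reads, and climbs again towards the 3′ end, and the points of Col1a2 lie at 0 at junctions 1 to 3.

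Col1a2 had no known read in either library, with 24 ISM, 2 NNC and 1 genomic read in replicate 1 and 25 ISM, 11 NNC and 1 NIC read in replicate 2. Of genes of like length, 7.91% in replicate 1 and 3.84% in replicate 2 had none. Yet 1 read in replicate 1 and 10 in replicate 2 crossed all 51 junctions of Col1a2. None of these could be classed as known, since the models of all lacked the very short exons near the start of the RNA. Col1a2-201 has exons of 11 bases (exon 2, 4508335 to 4508345) and 15 bases (exon 3, 4508940 to 4508954). The spliced sequence around them is printed with both in capitals, exon 2 being the first 11 of the 26; the last 30 coding bases of exon 1 stand before them and exon 4 after them.
Col1a2 exons 1 to 4, chr6:4505880-4509639, plus strand: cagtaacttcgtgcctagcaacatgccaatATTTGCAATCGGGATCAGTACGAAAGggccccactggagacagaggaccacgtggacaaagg
No read had either exon in its deposited model: 0 of 1 in replicate 1, and 0 of 10 in replicate 2, which allows up to 30.8% by the exact interval. The bases of the reads themselves were not examined. Exon 4, of 36 bases, was held exactly by 1 of 1 and 8 of 10. The read of replicate 1 and 7 of those of replicate 2 joined exon 1 to exon 4 directly with a donor 4 bases past the annotated end of exon 1, and 1 more of replicate 2 did so with a donor 6 bases past it. Counting junctions crossed in place of the known class, 3.70% of Col1a2 reads in replicate 1 (0.0937 to 18.97) and 27.03% in replicate 2 (13.8 to 44.1) ran end to end.

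Exons as short as these were hardly ever seen in any gene. Among coding genes, annotated internal exons of at most 15 bases that every coding form spanning them contains were held exactly by 0% of 897 reads across 40 such exons in replicate 1, and by 0.120% of 832 reads across 50 in replicate 2. For exons of 16 to 27 bases the share was 85.9% and 76.6%, and for 28 to 50 bases it was 97.9% and 96.8%. Of the shortest exons crossed by at least 5 reads, 15 of 15 in replicate 1 and 20 of 20 in replicate 2 were held exactly by none of their reads. Col1a2 was not left out of this tally, though in replicate 1 its exons 2 and 3, with 1 read across each, were not among the 15. The absence of these 2 exons from the models of the reads was thus shared with nearly all exons of their size in these libraries. The cause was not tested.

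**Figure D5:**
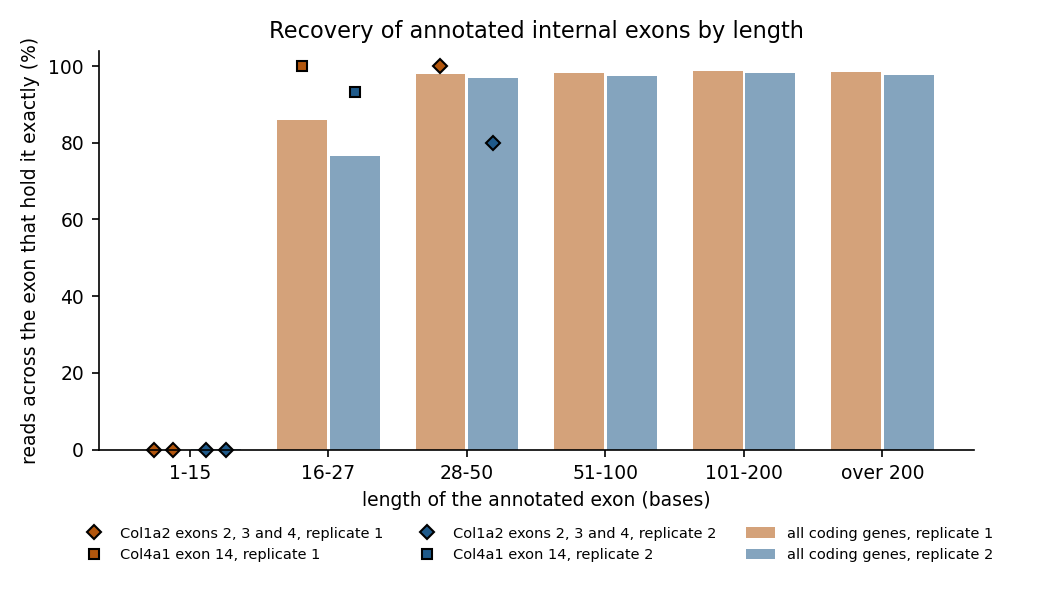
Percentage of reads across an annotated internal exon that held it exactly, by exon length in bases, over all coding genes (bars; replicate 1 left, replicate 2 right), with Col1a2 exons 2, 3 and 4 (diamonds) and Col4a1 exon 14 (squares). Bars and diamonds lie at or near 0% up to 15 bases, and the bars lie between 76.6% and 98.7% in every longer class.

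The next shortest exons of these collagens were kept. Col4a1 has exons of 27 bases at exon 8 (11245058 to 11245084) and exon 14 (11240041 to 11240067), the second shown with 30 bases of each neighbouring exon and exon 14 in capitals.
Col4a1 exons 13 to 15, chr8:11239848-11241151, minus strand: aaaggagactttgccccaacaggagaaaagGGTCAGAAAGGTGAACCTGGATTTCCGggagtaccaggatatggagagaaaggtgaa
Exon 8 was held by 19 of 19 reads in replicate 1 and 59 of 59 in replicate 2. Exon 14 was held by 4 of 4 reads in replicate 1 and 56 of 60 in replicate 2, or 93.3% (83.8 to 98.1), and the other 4 reads lacked it. Of all junction crossings, the read held the exact annotated junction in 99.7% and 99.5% for Col1a1, 100% and 99.3% for Col3a1, 99.1% and 98.1% for Col4a1 and 99.8% and 96.2% for Col4a2. Col1a2 was lowest of the 5 in both libraries, with 99.0% and 93.6%.

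New splice sites in the 10 genes mostly lay next to annotated ones. Of the 71 NNC reads of both libraries, 43 had no new site more than 6 bases from an annotated site. By gene these were 11 of 13 for Col1a2, 17 of 23 for Sparc, 7 of 9 for Mgp, 3 of 3 for Col3a1, 2 of 4 for Col1a1, 3 of 12 for Col4a1 and 0 of 7 for Col4a2. Dcn and Lum had none. The collagen models found in both libraries were 14 of the 28 in replicate 1 and of the 48 in replicate 2 for Col4a1, and 10 of 22 and of 37 for Col4a2. They were 6 of 17 and of 28 for Col1a2, 1 of 8 and of 13 for Col1a1 and 1 of 9 and of 9 for Col3a1, and for Col1a1 and Col3a1 the shared model was the known transcript.

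In each of 7 lists of other matrix genes, more of the tested members were lower than higher in replicate 1, the direction in which all genes leaned as well (27.9% higher and 36.6% lower). With the length trend removed, when 2071 of the 9879 genes tested were higher and 1885 (19.1%) lower, this held for 6 lists, while the other small proteoglycans had 2 in each direction. Of 17 further collagens 7 could be tested, and 0 were higher and 5 lower (median log2 ratio −2.01). Col6a1, a chain of the beaded filaments around cells, led with 40 and 173 reads, before Col18a1, the endostatin precursor (21 and 56 reads), and Col6a2 (7 and 32 reads); Col2a1, the cartilage collagen, had none. Of 4 tested small proteoglycans 0 were higher and 2 lower (median −1.06): Ogn had 35 and 95 reads and Fmod 3 and 29, while Bgn had 64 and 43 reads and did not pass (log2 ratio −0.06). All 9 tested genes of elastic fibres and matricellular proteins were lower (median −2.22), with Postn, periostin, at 6 and 91 reads (log2 ratio −4.38). Of 9 tested basement membrane genes, 0 were higher and 2 lower (median −0.73), the laminin chains Lamb1 (33 and 93 reads) and Lamb2 (24 and 59 reads).

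Summed over 19 genes, collagen folding and crosslinking took 0.366% and 0.527% of reads, against 0.0187% and 0.0526% for the 5 collagen chains. Some of the 19 nevertheless had fewer reads than any of the chains in both libraries. The median annotated length of the list was 3243 bases, and the chains measured 5348 to 6615. Of 18 tested 3 were higher and 13 lower (median −1.70). P4hb, a subunit of prolyl hydroxylase and a general disulfide isomerase, had 691 and 1228 reads, and Plod2, a lysyl hydroxylase, 156 and 321. Pcolce, which speeds the cleavage of procollagen, went the other way with 1542 and 281 reads (log2 ratio 1.82). Pcolce alone thus had more reads than the 5 collagen chains summed in replicate 1, at 159, and nearly as many in replicate 2, at 287. Of 9 tested matrix receptors 0 were higher and 5 lower (median −1.21), among them Itgb1, the common integrin beta chain (147 and 400 reads). Of 6 tested turnover genes 2 were higher and 4 lower (median −1.85): Timp3 had 141 and 317 reads and Timp2 94 and 23.

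Markers of the cells that could make these RNAs moved in several directions, and their part in the differences between the libraries was not tested. The counts below stand beside 27.9% of all genes tested higher in replicate 1 and 36.6% lower. Of 5 tested capsule and stroma markers 0 were higher and 1 lower, against 1 and 0 under TMM scaling, and the list summed to 151 and 109 reads (0.0178% and 0.0200%). Pericyte and smooth muscle markers summed to 161 and 68 reads, with 2 higher and 1 lower of 4: Acta2 had 102 and 15, Tagln 34 and 4, and Rgs5 9 and 23. Endothelial markers summed to 410 and 816 reads, with 1 higher and 7 lower of 9: Plvap had 82 and 212 and Pecam1 17 and 90, while Cdh5 had 6 and 2 and was not tested. Fat cell markers summed to 185 and 25 reads, with 3 higher and 0 lower of 4: Cfd had 85 and 0, Plin1 72 and 23 and Adipoq 14 and 0. Macrophage markers summed to 1127 and 210 reads, with 6 higher and 3 lower of 9, led by Lyz2 at 550 and 77. The 3 lower ones, named after their values were seen, were Adgre1 (11 and 26), Csf1r (17 and 36) and Mrc1 (6 and 18). None of the 9 passed in either direction once the length trend was taken out (exact binomial test), with 2 at an unadjusted p under 0.05.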

How the data were processed

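The authors deposited, for each library, whole read counts per transcript model with a class and an annotation of all models, on mm10 with GENCODE M21 per the deposited readme; TALON is named in the annotation's source column. The sources used here do not give the platform, the aligner or tool versions. The counts were not normalized. Gene levels are sums over models, scaled to 1000000 reads (CPM). Libraries were compared by two-sided Fisher's exact tests with Benjamini-Hochberg adjustment over all genes with at least 10 reads (levels) or with 20 reads of the needed classes in each library (complete share, isoform use); these take reads as independent. Log2 ratios are replicate 1 over replicate 2 after adding 1 CPM. Intervals are exact binomial or Poisson at 95%. Alternatives used edgeR (4.0.16, R 4.3.3) TMM, DESeq2 (1.42.0) size factors and removal of a running median over 201 genes ordered by length. A spliced read crossed a junction when its model began before and ended after the intron. Model structures were compared with the principal coding transcript of each gene (APPRIS tag, then length). The tests were checked on simulated data. Python (3.11.15), numpy (2.4.6), pandas (2.3.3), scipy (1.17.1) and matplotlib (3.10.9) served. Besides the 10 genes, names came from the 3 highest of each other list, its unread genes and set defining markers, with exceptions stated; members and lists were chosen with earlier results of these data known.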

Additional observations from a re-analysis of the deposited data

Results flagged for a closer look

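Reads from the opposite strand, which no comparison used, lay over Col4a1 and Sparc above the limit of 3 reads that a count of 0 allows. Antisense models over Col4a1 held 18 reads in replicate 1 and 6 in replicate 2. The largest had 14 and 3 reads, was unspliced and was listed at 11208331 to 11211764 on chromosome 8. Antisense models over Sparc held 6 reads in replicate 1, of which 5 were in 1 unspliced model at 55414270 to 55416134 on chromosome 11, and 2 in replicate 2. A genomic model assigned to Sparc itself had that same span, with 2 reads in replicate 1. Col1a2 and Col4a2 likewise had an unspliced span listed both ways there. How well the strand of unspliced reads was called was not tested. The other matrix genes had at most 2 antisense reads in a library.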

How the results depend on the processing

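The number of matrix genes lower in replicate 1, 6 by Fisher's exact test, was 3 under TMM scaling, DESeq2 size factors, removal of the length trend and a minimum of 50 reads, which left 6 genes to test. Of all genes tested, 36.6% were lower by the main test. Under these 4 settings, in the same order, 27.6%, 27.5%, 19.1% and 44.0% were. Under TMM and DESeq2 the calls lost were Lum, Col1a2 and Col4a2, and with the length trend removed also Col3a1. Mgp reversed there, to −2.13. The share of all calls that were higher in replicate 1 was 43.2% with total reads, 55% under TMM, 55.2% under DESeq2 and 52.3% with the trend removed. The count of matrix genes with a lower complete share was 1, beside 25.2% of all genes tested. It was 2 with a minimum of 10 reads (adding Col3a1, −50 points, adjusted p = 0.045, Fisher's exact test) or with NIC and NNC counted as complete (adding Col4a2, −16.0 points, adjusted p = 0.042, Fisher's exact test). The share of all genes under those settings is not given here. For Sparc the difference was 1.77 points when only coding models counted as complete. With NIC and NNC counted, Col1a2 also stood at −24.7 points in place of 0 (adjusted p = 0.092, Fisher's exact test). With known models only, the number of genes lower was 4, as Col1a2 and Col4a2 had too few such reads to test, beside 41.9% of all genes tested. The log2 ratio of Col4a1, with 0 known reads in replicate 1, was then −6.35 in place of −1.82. The causes of these shifts were not tested. Without one or the other replicate, the share of reads was 0.0987% to 0.167% and the complete share 63.3% to 79.5%. The remaining values kept their direction and side of the threshold under the alternatives run. No paired analysis was possible because there is 1 group. Depth left Fn1, with 0 and 1 reads, untested, and Col1a1, Col3a1 and Lum rest on 13, 11 and 15 reads in replicate 1.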
